A study of Homo sapiens with 9 samples.

Results

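The 44 collagen genes of the gene table were followed in TC32 cells in which the fusion oncogene EWS::FLI1 had been silenced. Members were all genes whose symbol is COL, a type number, the letter A and a chain number, which gave 44 of the 60603 genes counted. The rule reads symbols only, but it was chosen with earlier results of these data known.

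The cells, TC32, are an established line of Ewing sarcoma, labelled as wild type in genotype and grown in medium with 10% FBS and L-glutamine. Bulk RNA-seq of polyA RNA was made from 3 groups of 3 libraries, labelled as biological replicates and all collected at 30 h. The siEF cells received a small interfering RNA directed at EWS::FLI1, the siNEG cells a nonspecific one, and the Media cells neither. All 9 libraries come from 1 cell line and carry the same batch number, so nothing in them speaks for other Ewing sarcoma lines. Library totals ran from 20727706 to 33134581 expected counts, and the smallest library was siEF replicate 2.

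Collagens are extracellular matrix proteins built from chains of repeated Gly-X-Y units that wind around each other in groups of 3. Fibrillar collagens assemble into the fibers of connective tissue, type IV collagen forms the network of basement membranes, type VI forms beaded filaments around cells, and fibril-associated collagens sit on the surface of the fibers. Chains are modified and folded in the endoplasmic reticulum, trimmed outside the cell and then crosslinked by lysyl oxidases.

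Levels are given as CPM, the expected counts scaled to a common library size with edgeR's TMM factors. Every adjusted p comes from edgeR's quasi-likelihood test with Benjamini-Hochberg adjustment over the 16093 genes tested. Calls required an adjusted p under 0.01 together with a log2 fold change (Log2FC) beyond 1 in either direction. Because the RNA was extracted from whole cultures, fewer cells that express a gene and less RNA per cell cannot be told apart.

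The silencing was checked first. FLI1, whose gene-level count includes the fusion transcript, stood at 38.4, 35.5 and 39.3 CPM in siEF against 48.6, 48.5 and 48.0 in siNEG and 59.5, 56.2 and 57.9 in Media. This was lower in each siEF library but was not called (siEF against siNEG, Log2FC = -0.35 ± 0.06 SE, edgeR adjusted p = 2.88e-05). The methods of the study also report a qPCR check of the silencing, which showed a change of several cycles and is not part of these libraries. NR0B1, a known EWS::FLI1 induced gene, fell (Log2FC = -2.97 ± 0.08 SE, edgeR adjusted p = 7e-15). PHLDA1, a known EWS::FLI1 repressed gene, rose (Log2FC = 5.23 ± 0.09 SE, edgeR adjusted p = 4.01e-17). Of 6 Ewing sarcoma markers, CD99 was present in all groups at a mean of 189 CPM in siEF and 161 in siNEG. The other 5 (NKX2-2, NR0B1, STEAP1, LIPI and PAX7) were called lower in siEF against siNEG, where 11.7% of all genes tested were.

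Collagen genes rose across most structural classes after silencing. Of the 44 members, 28 had enough counts to be tested, and in siEF against siNEG 23 of these were called higher, where 17.1% of all genes tested were. No member was called lower by edgeR, where 11.7% of all genes were, and 0 were called lower by DESeq2. At an unadjusted p under 0.05, 1 member was lower by edgeR and the same member, COL4A4, by DESeq2. Against Media, which shares the siEF libraries with the first comparison, 24 were called higher (17.4% of all genes) and 0 lower by edgeR (12.5%), with 2, COL4A3 and COL4A4, lower at an unadjusted p under 0.05 and 0 called lower by DESeq2.

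The median Log2FC over the 28 tested members was 2.09 against siNEG and 2.75 against Media, while the median over all genes tested was 0.05 and 0.04. Counting COL6A6, which was at 0 in siNEG, at its lower bound left the median against siNEG at 2.09. In 24 members every siEF library lay above every siNEG library (39.8% of all genes tested), and in 1, COL4A4, every siEF library lay below (37.1%). The filter on low counts passed 5 of the 28 members (COL12A1, COL26A1, COL4A5, COL6A3 and COL6A6) only through their siEF libraries, so these had to differ. Of the 23 that passed it without siEF, 18 were called higher against siNEG, and their median Log2FC was 1.90.

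**Figure D1:**
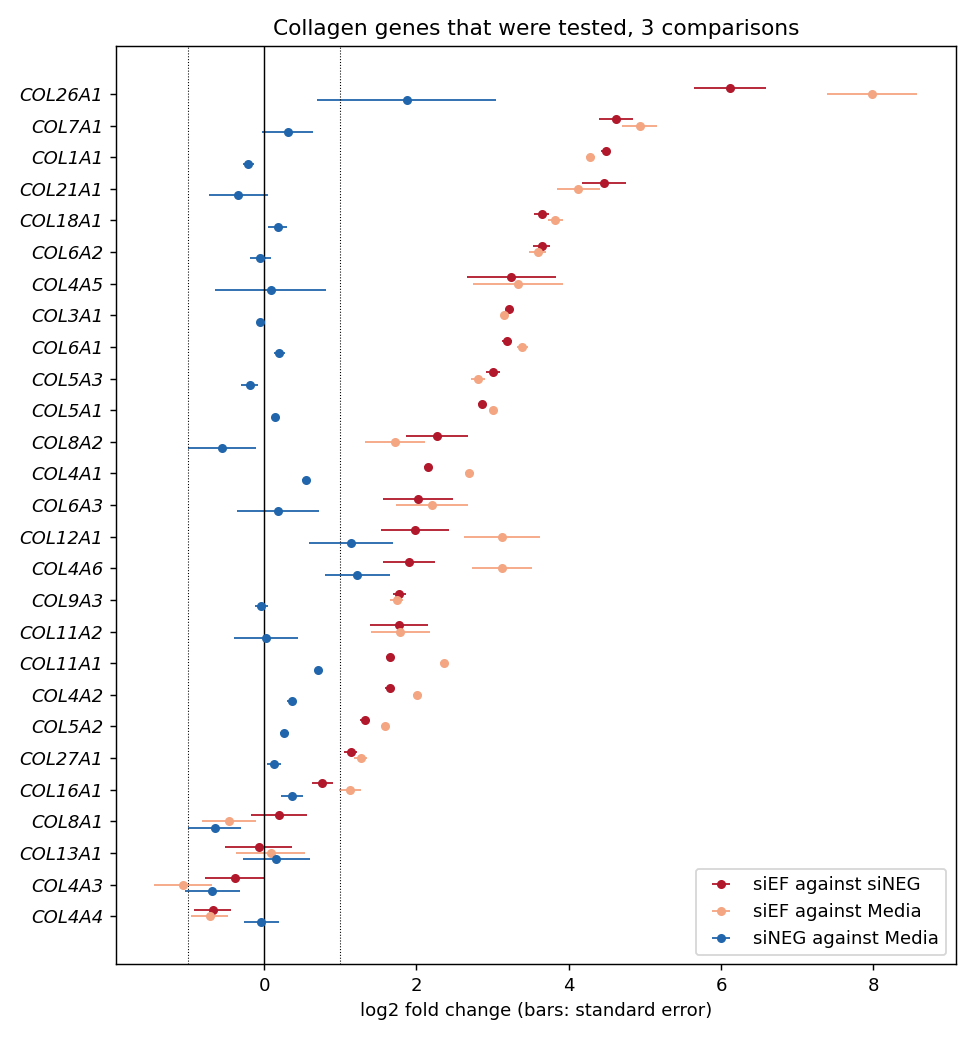
Log2FC of the tested collagen genes (horizontal axis, bars are standard errors) in siEF against siNEG, siEF against Media and siNEG against Media, with dotted lines at -1 and 1. COL6A6, at 0 in both control groups, is not drawn. Most siEF points lie right of the upper dotted line, and COL4A3 and COL4A4 lie left of 0.

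In terms of reads, the collagen genes together took 0.797% to 0.823% of the counts in the siEF libraries, 0.113% to 0.121% in siNEG and 0.103% to 0.110% in Media. No siEF library overlapped a control library. Without COL3A1 the shares were 0.237% to 0.248%, 0.0514% to 0.0556% and 0.0399% to 0.0424%, so that the separation did not rest on this gene alone. COL3A1 supplied 69.8% to 70.8% of collagen counts in siEF, 54.1% to 54.6% in siNEG and 61.3% to 61.8% in Media. It was the 7th or 8th most counted gene of the siEF libraries and ranked between 171 and 204 in the control libraries. More collagen genes were also seen: 28 to 30 members had at least 10 counts in a siEF library, compared with 22 to 24 in siNEG and 21 to 25 in Media.

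**Figure D2:**
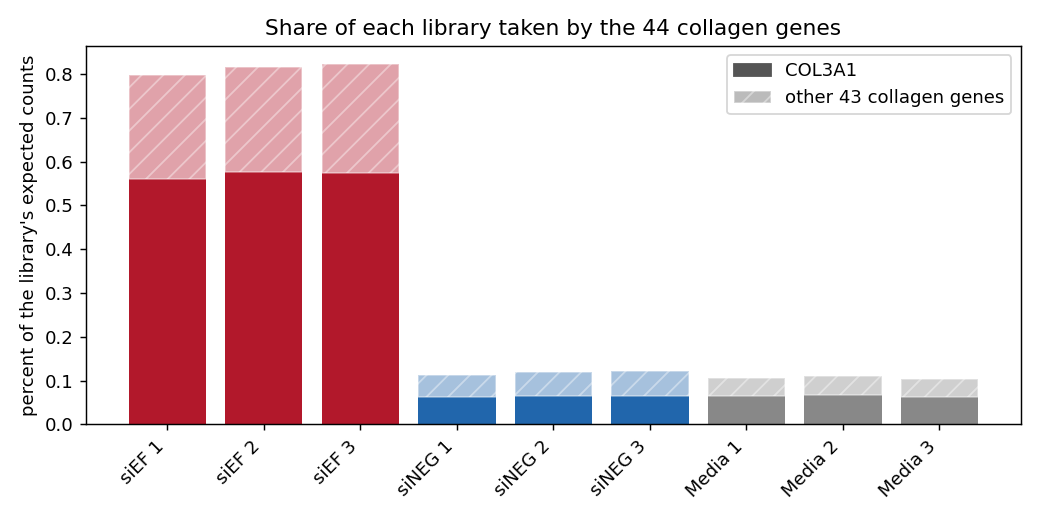
Share of each library's expected counts taken by the 44 collagen genes (vertical axis, percent), with COL3A1 solid and the other 43 hatched. The 3 siEF libraries reach 0.797% to 0.823% and the 6 control libraries stay at or under 0.121%.

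Fibrillar collagens were the class with the most counts. Of 11 fibrillar genes 8 were tested, and all 8 of these were called higher in siEF against both controls. Of all genes tested, 17.1% were called higher against siNEG and 17.4% against Media. COL3A1 (chr2:188974373-189012746, plus strand, hg38), the only chain of type III collagen in skin and vessel walls, measured 5704, 5861 and 5924 CPM in siEF. It measured 611, 634 and 637 CPM in siNEG and 659, 669 and 634 in Media. The control groups overlapped each other and lay far under siEF (siEF against siNEG, 9.29-fold, Log2FC = 3.22 ± 0.04 SE, edgeR adjusted p = 6.51e-18).

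COL1A1 (chr17:50184101-50201632, minus strand), the main chain of type I collagen in bone and tendon, showed 330, 340 and 352 CPM in siEF, 16.8, 14.0 and 14.9 in siNEG and 17.6, 17.5 and 17.5 in Media. All siEF libraries were above all control libraries (22.4-fold, Log2FC = 4.49 ± 0.06 SE, edgeR adjusted p = 7.39e-18). Its partner in type I collagen, COL1A2, did not follow at a level that could be tested. COL1A2 had 9, 1 and 7 counts in siEF and 0 in all 6 control libraries. Against a floor of 3 counts per library, which covers counting error in the controls only, the siEF mean was 2.20-fold higher than siNEG. This value is not a firm bound, because siEF replicate 2, with 1 count, was itself under the floor. In the same siEF libraries COL1A1 had 9136, 6946 and 10281 counts.

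The type V and type XI chains, which join and nucleate collagen fibrils, also rose. COL5A1 was at 534, 537 and 559 CPM in siEF, 74.5, 74.3 and 75.6 in siNEG and 65.0, 71.4 and 66.1 in Media (7.27-fold over siNEG, Log2FC = 2.86 ± 0.05 SE, edgeR adjusted p = 4.01e-17). COL5A2 was at 211, 202 and 220 CPM in siEF, 78.5, 86.8 and 88.9 in siNEG and 70.7, 73.5 and 67.1 in Media (2.49-fold, Log2FC = 1.32 ± 0.05 SE, edgeR adjusted p = 1.69e-12). COL5A3 was at 33.6, 33 and 31 CPM in siEF, 4.42, 3.89 and 3.85 in siNEG and 5, 4.28 and 4.61 in Media (8.02-fold, Log2FC = 3.0 ± 0.09 SE, edgeR adjusted p = 3.47e-14). In none of the 3 did a siEF library overlap a control library, and COL5A2 showed the smallest of the 3 estimates.

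COL11A1, a type XI chain abundant in cartilage, was at 478, 482 and 513 CPM in siEF, 149, 162 and 159 in siNEG and 92.6, 98.3 and 96.3 in Media (3.14-fold over siNEG, Log2FC = 1.65 ± 0.05 SE, edgeR adjusted p = 1.4e-14). Its 3 groups formed separate steps, with siNEG between Media and siEF. COL27A1, a fibrillar collagen of developing cartilage, was at 40.5, 33.6 and 40.9 CPM in siEF, 19.0, 16.8 and 16.7 in siNEG and 16.6, 14.9 and 16.6 in Media. It rose the least of the fibrillar chains (2.20-fold, Log2FC = 1.14 ± 0.08 SE, edgeR adjusted p = 2.64e-09), and a test against a Log2FC of 1 itself did not call it (edgeR adjusted p = 0.0803). COL11A2, the other type XI chain, had 54, 28 and 80 counts in siEF, 18, 26 and 14 in siNEG and 10, 16 and 27 in Media (Log2FC = 1.77 ± 0.38 SE, edgeR adjusted p = 0.000536, and 0.0378 in the test against 1). The remaining fibrillar genes stayed low in every library: COL2A1, the type II collagen of cartilage, had at most 12 counts, and COL24A1 at most 7.

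**Figure D3:**
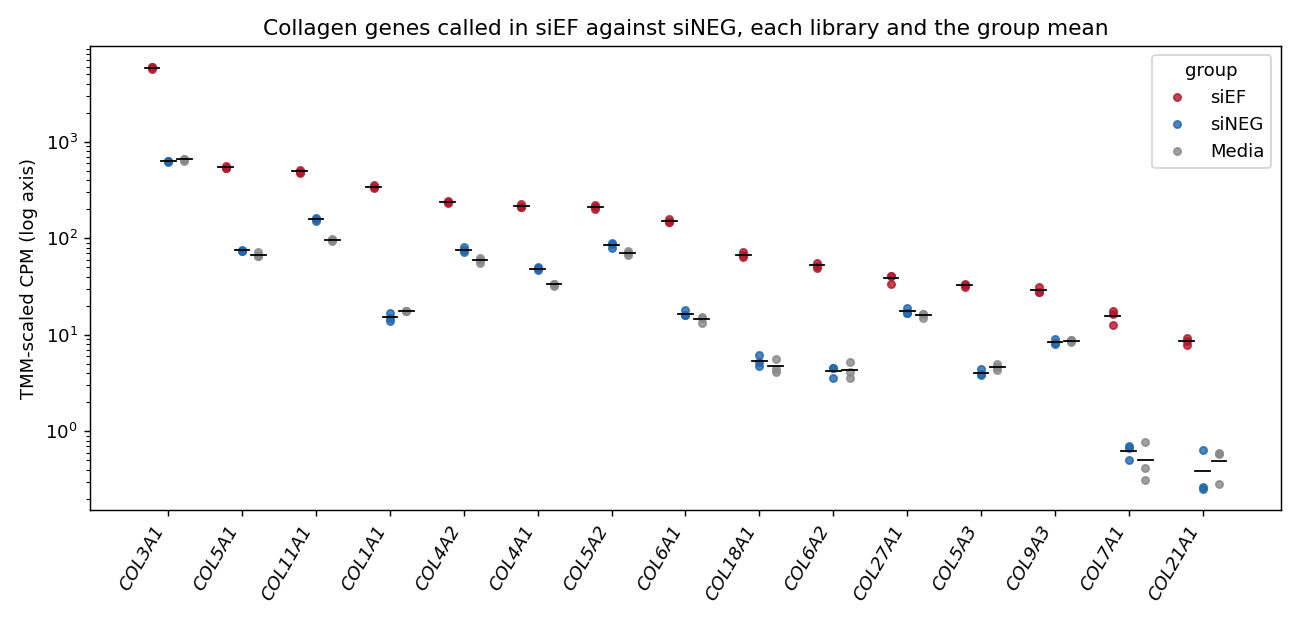
TMM-scaled CPM (vertical log axis) in each library of the 15 collagen genes called in siEF against siNEG with a mean of at least 5 CPM. Points are libraries, black lines are group means, and in each gene the 3 siEF points lie above all 6 control points.

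The basement membrane chains split by gene pair. The type IV genes lie in head-to-head pairs, and the widely expressed pair COL4A1 and COL4A2, the chains of most basement membranes, rose together. COL4A1 was at 209, 210 and 227 CPM in siEF, 46.7, 48.8 and 50.2 in siNEG and 33.9, 33.9 and 31.9 in Media (4.43-fold over siNEG, Log2FC = 2.15 ± 0.05 SE, edgeR adjusted p = 2.82e-15). COL4A2 was at 236, 233 and 246 CPM in siEF, 71.5, 74.7 and 81.8 in siNEG and 60, 61.7 and 55.5 in Media (3.14-fold, Log2FC = 1.65 ± 0.06 SE, edgeR adjusted p = 1.2e-13). In both, siEF was highest, siNEG was between and Media was lowest, with no overlap. The RefSeq starts of this pair (GRCh38.p14) are 127 bases apart on opposite strands, and the promoter windows, 250 bases before to 50 after each start, share 226 bases. They are shown because 1 stretch of DNA serves a pair of genes that moved in the same direction, COL4A1 from chr13:110307108-110307407 on the minus strand and COL4A2 from chr13:110307034-110307333 on the plus strand. Capitals mark GGAA, the core letters bound by ETS factors such as FLI1, read on either strand (TTCC is GGAA on the other strand).
COL4A1: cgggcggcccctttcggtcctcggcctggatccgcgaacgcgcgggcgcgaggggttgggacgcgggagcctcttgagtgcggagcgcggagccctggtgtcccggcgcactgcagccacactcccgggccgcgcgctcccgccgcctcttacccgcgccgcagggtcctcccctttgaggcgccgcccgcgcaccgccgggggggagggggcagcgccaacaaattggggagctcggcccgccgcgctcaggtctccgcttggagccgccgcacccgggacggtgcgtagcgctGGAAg
COL4A2: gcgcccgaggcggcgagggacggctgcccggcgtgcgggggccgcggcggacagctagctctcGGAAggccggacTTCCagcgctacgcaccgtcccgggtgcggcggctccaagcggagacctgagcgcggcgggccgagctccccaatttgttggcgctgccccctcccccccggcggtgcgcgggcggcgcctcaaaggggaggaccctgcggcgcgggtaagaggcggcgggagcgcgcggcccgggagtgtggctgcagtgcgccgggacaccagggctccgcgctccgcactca
The COL4A1 window held 1 such match and the COL4A2 window 2. The COL4A1 match is the same site as the TTCC of the COL4A2 window, read on the other strand.

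COL4A5 and COL4A6, a head-to-head pair on chromosome X with 340 bases between them that encodes chains of smooth muscle and epidermal basement membranes, were low but rose as well. COL4A5 had 60, 43 and 74 counts in siEF, 5, 15 and 3 in siNEG and 0, 7 and 13 in Media (Log2FC = 3.25 ± 0.58 SE, edgeR adjusted p = 9.14e-05). Without siNEG replicate 2 its Log2FC was 4.11, and COL4A5 passed the filter on low counts only through its siEF libraries. COL4A6 had 47, 47 and 80 counts in siEF, 20, 20 and 18 in siNEG and 3, 9 and 11 in Media (Log2FC = 1.90 ± 0.34 SE, edgeR adjusted p = 0.000107, and 0.0116 in the test against 1). The groups siEF and siNEG did not overlap in either gene.

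The pair COL4A3 and COL4A4, chains of the kidney's filtering membrane whose genes lie 170 bases apart on chromosome 2, was not called. COL4A3 had 20, 5 and 22 counts in siEF, 23, 27 and 25 in siNEG and 34, 30 and 48 in Media (siEF against siNEG, Log2FC = -0.38 ± 0.39 SE, edgeR adjusted p = 0.391; against Media, -1.06 ± 0.38 SE, edgeR adjusted p = 0.0194). COL4A4 had 30, 38 and 52 counts in siEF, 101, 77 and 64 in siNEG and 74, 78 and 81 in Media (siEF against siNEG, Log2FC = -0.68 ± 0.25 SE, edgeR adjusted p = 0.0211). Every siEF library of COL4A4 lay under every control library, whereas COL4A3 overlapped siNEG. COL4A3 shares 838 exon bases with the lncRNA MFF-DT on the opposite strand, at 19 to 54 counts per library, and because the strand setting of the counting is not given in the sources used here, reads of the 2 genes cannot be told apart there.

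Of 5 type VI collagen genes 4 were tested and called higher in siEF against siNEG, where 17.1% of all genes tested were. However, COL6A3 and COL6A6 passed the filter on low counts only through their siEF libraries. COL6A1, a core chain of type VI collagen around muscle and connective tissue cells, was at 149, 146 and 160 CPM in siEF, 15.9, 16.1 and 17.9 in siNEG and 14.8, 15.4 and 13.1 in Media (9.13-fold over siNEG, Log2FC = 3.19 ± 0.07 SE, edgeR adjusted p = 7.75e-16). COL6A2, its partner chain, was at 51.5, 49.4 and 55.8 CPM in siEF, 4.49, 3.60 and 4.49 in siNEG and 5.26, 4.16 and 3.56 in Media (12.5-fold, Log2FC = 3.64 ± 0.11 SE, edgeR adjusted p = 3.52e-14). Both controls overlapped in COL6A2, and all siEF libraries were above them. COL6A3, the long chain that completes the usual type VI trimer, remained scarce, with 28, 17 and 28 counts in siEF, 7, 7 and 8 in siNEG and 3, 4 and 11 in Media (Log2FC = 2.02 ± 0.46 SE, edgeR adjusted p = 0.000824, and 0.0258 in the test against 1). COL6A6, an alternative to that chain, had 43, 36 and 43 counts in siEF and 0 in all 6 control libraries, at least 17.1-fold higher than siNEG against the floor of 3 counts per library (edgeR adjusted p = 7.23e-07). COL6A5 was at 0 in all 9 libraries.

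COL7A1 (chr3:48564073-48595329, minus strand), which forms the anchoring fibrils that tie the epidermis to the dermis, was at 16.3, 12.6 and 17.7 CPM in siEF, 0.505, 0.678 and 0.705 in siNEG and 0.784, 0.317 and 0.419 in Media. All siEF libraries lay above the controls (24.6-fold over siNEG, Log2FC = 4.62 ± 0.22 SE, edgeR adjusted p = 9.1e-12). COL18A1, the basement membrane collagen from which endostatin is released, was at 63.7, 71.2 and 66.7 CPM in siEF, 4.71, 5.28 and 6.12 in siNEG and 4.41, 5.58 and 4.16 in Media (12.5-fold, Log2FC = 3.64 ± 0.10 SE, edgeR adjusted p = 9.37e-15). COL18A1 shares 1563 exon bases with SLC19A1 on the opposite strand, which had 355 to 454 counts in siEF and 1257 to 1571 in siNEG, so its counts were lower in the libraries where those of COL18A1 were higher, and the strand limit given for COL4A3 holds here too. COL15A1, the other multiplexin, had at most 7 counts in a library and was not tested.

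Of 10 fibril-associated collagens 4 were tested. Of these, 3 were called higher in siEF against siNEG, where 17.1% of all genes tested were. COL9A3, a chain of the type IX collagen that coats cartilage fibrils, was at 27.9, 31.2 and 28.0 CPM in siEF, 8.25, 8.02 and 9.10 in siNEG and 8.78, 8.76 and 8.49 in Media (3.43-fold over siNEG, Log2FC = 1.78 ± 0.08 SE, edgeR adjusted p = 5.07e-12). COL21A1 was at 8.53, 7.84 and 9.22 CPM in siEF, 0.253, 0.265 and 0.641 in siNEG and 0.588, 0.286 and 0.594 in Media (22.1-fold, Log2FC = 4.46 ± 0.29 SE, edgeR adjusted p = 4.44e-10). Neither gene's siEF libraries overlapped a control library. COL9A3 shares 155 exon bases with TCFL5 on the opposite strand, which had 514 to 710 counts in siEF and 619 to 693 in siNEG. COL12A1, a stretch-associated collagen of tendon and ligament, had 58, 36 and 75 counts in siEF, 33, 6 and 13 in siNEG and 8, 5 and 9 in Media (Log2FC = 1.98 ± 0.44 SE, edgeR adjusted p = 0.000736, and 0.0260 in the test against 1). Its highest siNEG library was replicate 1, and without it the Log2FC was 2.83. COL12A1 passed the filter on low counts only through its siEF libraries. COL16A1 was at 8.60, 8.72 and 10.8 CPM in siEF, 5.65, 5.57 and 5.35 in siNEG and 5.13, 3.55 and 4.23 in Media. Its libraries separated, but it passed the fold threshold only against Media (siEF against siNEG, Log2FC = 0.77 ± 0.14 SE, edgeR adjusted p = 9.91e-05; against Media, 1.13 ± 0.14 SE, edgeR adjusted p = 2e-06). Without Media replicate 2 the call against Media was lost.

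The remaining called members were low. COL26A1, a collagen with an EMI domain, had 116, 83 and 98 counts in siEF, 3, 2 and 0 in siNEG and 0, 0 and 1 in Media (siEF against siNEG, Log2FC = 6.11 ± 0.48 SE, edgeR adjusted p = 5.14e-09). Without siNEG replicate 1 this Log2FC was 6.76, and COL26A1 passed the filter on low counts only through its siEF libraries. COL8A2, a short chain of the corneal Descemet membrane, had 76, 25 and 63 counts in siEF, 20, 10 and 11 in siNEG and 19, 28 and 10 in Media (Log2FC = 2.27 ± 0.41 SE, edgeR adjusted p = 0.000102). In counts its lowest siEF library overlapped the highest Media library, and in CPM the siEF libraries stood above both controls. Its partner COL8A1 had 28, 20 and 13 counts in siEF and 19, 26 and 23 in siNEG and overlapped it (Log2FC = 0.19 ± 0.37 SE, edgeR adjusted p = 0.651). COL13A1, a transmembrane collagen of the neuromuscular junction, had 11, 6 and 20 counts in siEF and 9, 22 and 17 in siNEG and overlapped it too (Log2FC = -0.07 ± 0.45 SE, edgeR adjusted p = 0.89).

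The 16 members that were not tested had at most 18 counts in any library. COL6A5 and COL22A1 were at 0 throughout. COL9A1, the partner of COL9A3, had 6, 12 and 15 counts in siEF and 0 in all 6 control libraries, at least 4.72-fold higher than siNEG against the floor. COL9A2 had 8, 18 and 9 counts in siEF and 1, 8 and 1 in siNEG. COL17A1, the hemidesmosome collagen, had 4, 1 and 4 counts in siEF and 0 in the controls, and COL25A1 had 2, 5 and 6 counts in siEF and 1 in all controls together. COL10A1, COL14A1, COL19A1, COL20A1, COL23A1 and COL28A1 had at most 7 counts in a library.

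The nonspecific siRNA went with smaller differences in a few chains. In siNEG against Media, edgeR called 0 of the 28 tested members at the fold threshold and DESeq2 called 0, where 0.429% of all genes tested were called by edgeR. At an unadjusted p under 0.05, 8 members were higher and 1, COL1A1, was lower by edgeR. For counts at an unadjusted p, here and above, no share over all genes is given, so they cannot be set against a general rate. With the adjusted p under 0.01 and no fold threshold, 4 members were higher (3.83% of all genes tested) and 0 lower (5.96%). These were COL11A1 (Log2FC = 0.71 ± 0.05 SE, edgeR adjusted p = 4.68e-08), COL4A1 (0.55 ± 0.05 SE, edgeR adjusted p = 3.56e-06), COL4A2 (0.36 ± 0.06 SE, edgeR adjusted p = 0.000288) and COL5A2 (0.27 ± 0.06 SE, edgeR adjusted p = 0.00331). In all 4 the siNEG libraries lay above the Media libraries and under the siEF libraries. No share over all genes is given for this order of the groups. COL3A1 did not pass (Log2FC = -0.06 ± 0.04 SE, edgeR adjusted p = 0.344), nor did COL6A1 (0.20 ± 0.08 SE, edgeR adjusted p = 0.0818).

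Because chains differ in length, their levels were compared per kilobase of exon (GENCODE 44, all exons of a gene merged). A ratio between chains depends on the lengths used, whereas its fold difference between groups does not. On this scale COL3A1 led in every group, at 863 ± 16.8 CPM per kb (SD, n = 3) in siEF, 92.8 ± 2.08 in siNEG and 96.8 ± 2.66 in Media. Next in siEF were COL11A1 at 54.0 ± 2.07, COL5A1 at 48.7 ± 1.24, COL1A1 at 37.8 ± 1.24 and COL5A2 at 28.9 ± 1.22 CPM per kb. In siNEG the order after COL11A1 was COL5A2 at 11.6 ± 0.749 and COL5A1 at 6.70 ± 0.0618, so that COL5A1 and COL5A2 stood in the opposite order, and COL1A1 was at 1.69 ± 0.159.

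Ratios between chains were then compared library by library, for chains of the same collagen and for COL3A1 against other fibrillar chains. The COL5A1 to COL5A2 ratio per kb was 1.66 to 1.74 in siEF, 0.558 to 0.623 in siNEG and 0.603 to 0.646 in Media. The COL4A1 to COL4A2 ratio was 1.16 to 1.22 in siEF, 0.806 to 0.859 in siNEG and 0.721 to 0.755 in Media. With these lengths both ratios were above 1 in all siEF libraries and under 1 in all control libraries. In plain counts COL5A1 and COL5A2 kept this pattern, whereas COL4A1 was under COL4A2 in every library. The COL6A1 to COL6A2 ratio went the other way, at 2.76 to 2.85 in siEF and 3.41 to 4.31 in siNEG, but Media, at 2.72 to 3.56, overlapped siEF. The COL3A1 to COL1A1 ratio was 22.4 to 23.0 in siEF, 48.6 to 60.5 in siNEG and 48.2 to 51.0 in Media, and that of COL8A1 to COL8A2 was 0.102 to 0.397 in siEF, 0.471 to 1.29 in siNEG and 0.674 to 1.79 in Media. For COL11A1 to COL11A2 and COL5A1 to COL5A3, siEF overlapped siNEG. The COL3A1 to COL5A2 ratio was 29.1 to 31.4 in siEF, 7.77 to 8.43 in siNEG and 9.86 to 10.2 in Media. Pairs in which a gene had under 10 counts in a siEF or siNEG library were left out of the test. Among pairs of the same collagen, 4 of 6 did not overlap between siEF and siNEG, and the COL3A1 pairs did not overlap either. Each of these had a two-sided exact permutation p = 0.1, the smallest that 3 libraries against 3 can give. After Benjamini-Hochberg adjustment over the 8 pairs it was 0.133. For single genes, siEF lay above siNEG without overlap in 39.8% of all genes tested and below it in 37.1%. No such share was computed for ratios.

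**Figure D4:**
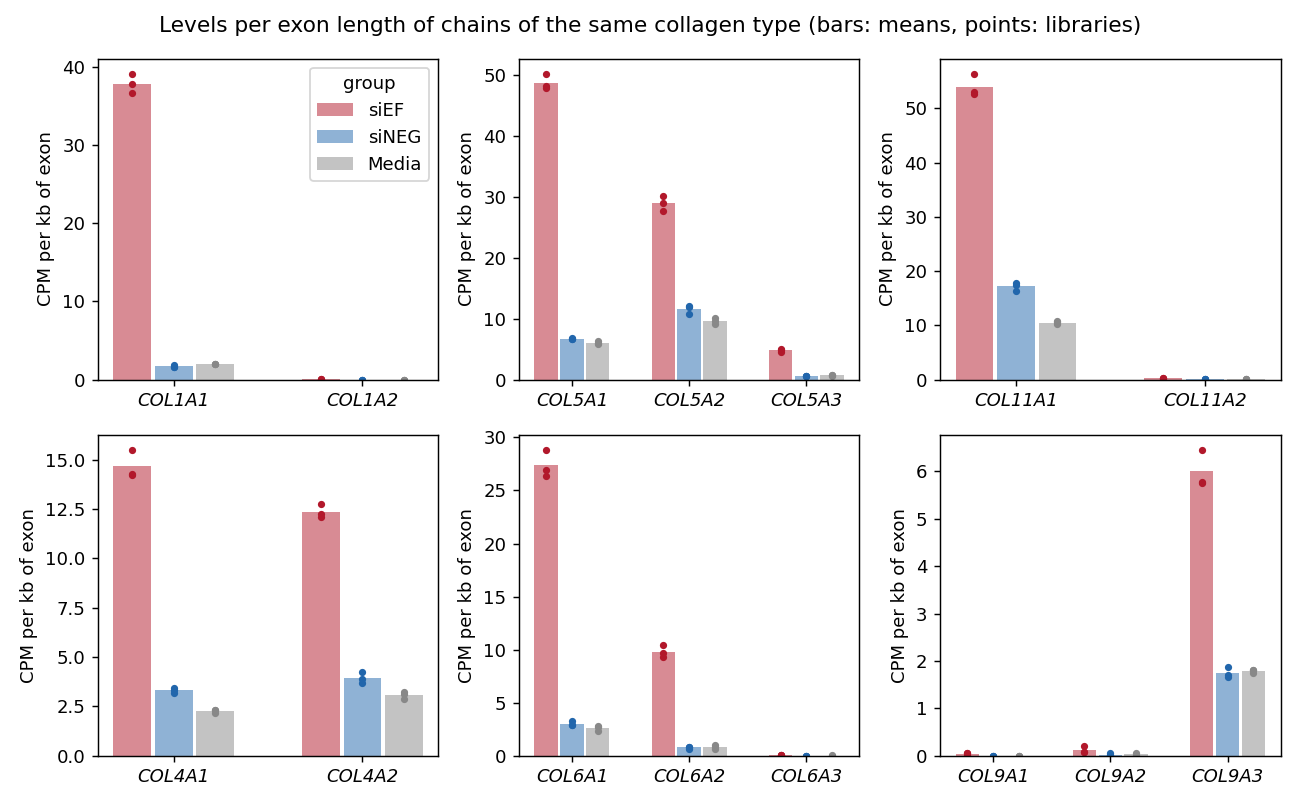
Level per kilobase of exon (vertical axis, CPM per kb) of chains that belong to the same collagen type, with bars for group means and points for libraries. COL1A1, COL11A1 and COL9A3 have a tall siEF bar beside partners near 0, and COL5A1 passes COL5A2 in siEF only.

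The genes that make and bind collagen showed a mixed pattern. From a list of synthesis genes, 29 of 33 were tested, and 11 were called higher and 1 lower in siEF against siNEG, where 17.1% and 11.7% of all genes tested were, with a median Log2FC of 0.63 beside 0.05 over all genes. Of the genes called higher, LOXL4 and P4HA3 passed the filter on low counts only through their siEF libraries, so these had to differ. CREB3L1, a membrane-bound transcription factor known to act on COL1A1, rose the most, from 0.758, 0.560 and 0.256 CPM in siNEG to 27.9, 25.7 and 28.0 in siEF (Log2FC = 5.68 ± 0.17 SE, edgeR adjusted p = 4.12e-14). Media stood at 1.14, 0.984 and 1.01 CPM, and siEF overlapped neither control.

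All members of the lysyl oxidase family, whose enzymes crosslink collagen, were called higher in siEF against siNEG, where 17.1% of all genes tested were. Among them LOXL4 passed the filter on low counts only through its siEF libraries. LOX went from 5.75, 5.81 and 5 CPM in siNEG to 46.0, 42.5 and 48.5 in siEF (8.27-fold, Log2FC = 3.05 ± 0.08 SE, edgeR adjusted p = 8.62e-15). LOXL2 rose 11.8-fold to a mean of 13.2 CPM (Log2FC = 3.56 ± 0.17 SE), LOXL4 32.5-fold to 6.79 CPM (5.02 ± 0.40 SE) and LOXL1 2.22-fold to 97.6 CPM (1.15 ± 0.06 SE), with no overlap between siEF and siNEG. LOXL3 also rose, at a mean of 2.17 CPM in siEF (Log2FC = 1.74 ± 0.28 SE). Outside the cell, BMP1, which trims procollagen ends, rose 2.99-fold to 51.7 CPM (Log2FC = 1.58 ± 0.07 SE) and its enhancer PCOLCE 2.79-fold to 18.3 CPM (1.48 ± 0.09 SE).

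Prolyl hydroxylases diverged. P4HA1, a catalytic subunit of the prolyl 4-hydroxylase that stabilizes the helix, fell from 46.4, 47.8 and 46.5 CPM in siNEG to 8.09, 9.06 and 9.39 in siEF, with Media at 51.2, 52.5 and 53.8 (Log2FC = -2.41 ± 0.07 SE, edgeR adjusted p = 1.67e-14). Its siEF libraries were under all controls. P4HA2, the alternative subunit, rose 2.07-fold to 16.6 CPM (Log2FC = 1.05 ± 0.11 SE, edgeR adjusted p = 1.3e-07), P4HA3 rose at a mean of 0.680 CPM (2.39 ± 0.53 SE, edgeR adjusted p = 0.000641), and P3H2, a prolyl 3-hydroxylase of basement membrane collagen, rose 9.95-fold to 15.3 CPM (3.31 ± 0.15 SE, edgeR adjusted p = 3.55e-12). The shared subunit P4HB, at 586 CPM in siEF and 607 in siNEG, and the collagen chaperone SERPINH1, at 568 and 567, did not pass the test (Log2FC = -0.05 and 0.00, edgeR adjusted p = 0.37 and 0.954).

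Of 10 collagen receptor genes 8 were tested, and 2 were called higher in siEF against siNEG, a share near the 17.1% of all genes tested. DDR1, a receptor tyrosine kinase activated by collagen, was at 168, 179 and 179 CPM in siEF, 29.3, 26.4 and 28.3 in siNEG and 26.5, 28.7 and 26.2 in Media (6.26-fold over siNEG, Log2FC = 2.65 ± 0.06 SE, edgeR adjusted p = 9.23e-16). ITGA11, the integrin chain for fibrillar collagen, rose at a mean of 2.14 CPM in siEF (Log2FC = 4.33 ± 0.54 SE, edgeR adjusted p = 1.94e-06). However, ITGA11 passed the filter on low counts only through its siEF libraries, so it had to differ. DDR2, the related kinase, was at 249 CPM in siEF and 291 in siNEG and was not called (Log2FC = -0.23, edgeR adjusted p = 0.000577). ITGB1, the beta chain that pairs with collagen-binding alpha chains, was not called either (Log2FC = 0.57, edgeR adjusted p = 3.91e-09).

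**Figure D5:**
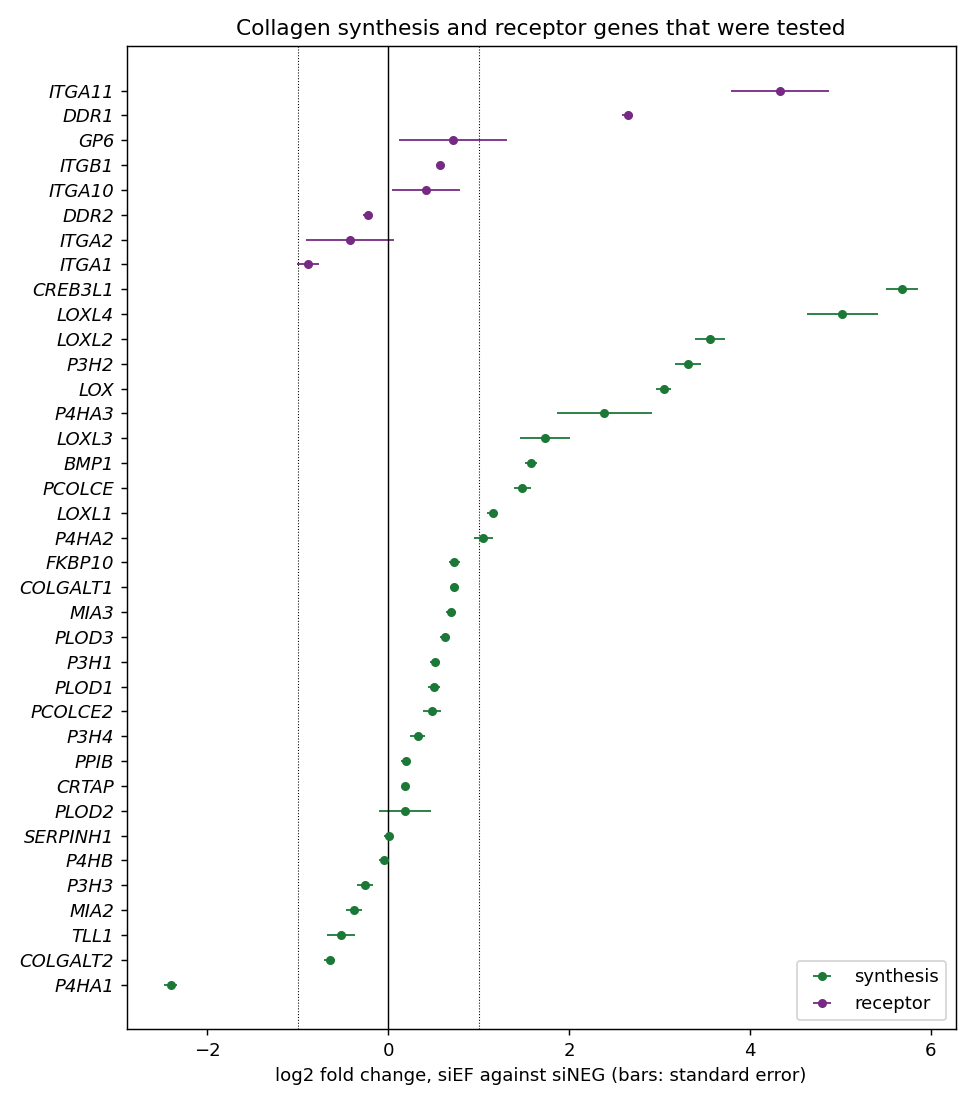
Log2FC in siEF against siNEG (horizontal axis, bars are standard errors) of the tested collagen synthesis and receptor genes, with dotted lines at -1 and 1. CREB3L1, LOXL4 and ITGA11 lie far to the right and P4HA1 alone lies left of -1.

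Markers of other cell types were read in the same libraries. In siEF against siNEG, 17.1% of all genes tested were called higher and 11.7% lower. Of 6 fibroblast markers 5 were called higher in this comparison. The summed level of the 6 was 215 to 220 CPM in siEF, 54.8 to 55.5 in siNEG and 55.9 to 62.2 in Media. Most of this sum was PDGFRA, at a mean of 112 CPM in siEF and 2.01 in siNEG, while the defining matrix genes DCN and LUM reached 2.24 and 1.24 CPM. All 4 epithelial markers were called higher against siNEG, with sums of 606 to 655 CPM in siEF, 103 to 108 in siNEG and 119 to 134 in Media, most of it KRT18 at 616 CPM in siEF. EPCAM was at 0.406 CPM in siEF, 0.0400 in siNEG and 0.399 in Media, and did not pass the test against Media (Log2FC = 0.02, edgeR adjusted p = 0.97). Of 4 endothelial markers TEK was called higher and PECAM1 lower against siNEG, with sums of 3.87 to 5.24 CPM in siEF and 3.62 to 4.96 in siNEG. The 5 leukocyte markers summed to at most 1.02 CPM in any library, and CD3E was at 0 in all. Of the markers called higher, LUM, FAP, CDH1, EPCAM and TEK passed the filter on low counts only with their siEF libraries counted. The part of the marker genes in the collagen differences was not tested.

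Promoter windows from RefSeq (GRCh38.p14, 250 bases before to 50 after a start) were available for 32 of the 44 members, 44 windows in all. Not found in that table were COL14A1, COL1A1, COL1A2, COL20A1, COL22A1, COL2A1, COL3A1, COL5A2, COL6A1, COL6A5, COL8A1 and COL9A3. Searched on both strands, GGAA was in 95.5% of member windows and in 95.5% of all 35116 windows. The repeat GGAAGGAA, which is a tandem pair of GGAA, the repeat unit of microsatellites that EWS::FLI1 binds, was in 0 member windows and in 3.67% of all windows. TGANTCA, the AP-1 letters, was in 1 member window (2.27%), that of COL10A1, and in 7.71% of all. GGGCGG, the letters of GC boxes bound by SP1, was in 54.5% of member windows and 45% of all, with 69.2% of 26 windows of members called higher and 33.3% of 18 windows of the other members. Most of the other members with windows were too low to be tested, and windows of the same gene, which can overlap, were counted separately. The shares are descriptions of letters in short windows, and they say nothing of distant elements.

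The following windows show GGAA and its reverse in capitals for COL7A1, which rose 24.6-fold (chr3:48595280-48595579, minus strand), for COL6A6, which was counted in siEF libraries only (chr3:130516927-130517226, plus strand), and for COL13A1, which was not called (chr10:69801656-69801955, plus strand).
COL7A1: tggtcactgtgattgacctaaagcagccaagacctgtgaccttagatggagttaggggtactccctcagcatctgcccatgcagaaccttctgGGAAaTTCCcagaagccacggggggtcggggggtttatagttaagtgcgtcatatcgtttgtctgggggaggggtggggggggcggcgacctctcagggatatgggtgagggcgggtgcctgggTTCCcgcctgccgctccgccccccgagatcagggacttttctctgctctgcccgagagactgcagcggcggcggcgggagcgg
COL6A6: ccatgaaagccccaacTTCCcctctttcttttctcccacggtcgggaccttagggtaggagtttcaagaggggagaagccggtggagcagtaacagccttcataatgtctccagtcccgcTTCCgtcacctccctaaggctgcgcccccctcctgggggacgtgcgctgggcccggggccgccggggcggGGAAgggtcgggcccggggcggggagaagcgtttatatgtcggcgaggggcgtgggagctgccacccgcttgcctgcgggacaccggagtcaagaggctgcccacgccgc
COL13A1: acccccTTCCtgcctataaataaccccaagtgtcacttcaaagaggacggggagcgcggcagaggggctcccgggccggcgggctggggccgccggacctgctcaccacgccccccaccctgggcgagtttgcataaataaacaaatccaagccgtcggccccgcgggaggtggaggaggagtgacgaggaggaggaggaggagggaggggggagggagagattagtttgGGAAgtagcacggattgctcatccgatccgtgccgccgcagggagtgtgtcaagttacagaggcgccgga
The COL7A1 and COL6A6 windows each held 3 matches and the COL13A1 window 2. GGAA was in 95.5% of all windows, so its presence does not set these windows apart. Its part in the collagen differences was not tested.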

How the data were processed

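The deposited table held expected counts per gene, which the authors made by aligning reads with STAR 2.7.1a to hg38 and quantifying with RSEM 1.3.1. Their notes also name FastQC, cutadapt 2.10 and DESeq2 1.32.0. The strand setting and annotation release are not given in the sources used here. The labels give the molecule as polyA RNA but name a small RNA library kit. Expected counts were rounded, filtered with filterByExpr and fitted over all 9 libraries with edgeR 4.0.16 (R 4.3.3, TMM scaling, glmQLFit and glmQLFTest), which was tested on simulated data. Coordinates and exon lengths are from GENCODE 44, matched by gene ID for all 44 members. The edgeR p-values set a group difference against the spread between libraries of the same group, estimated over all 9 libraries together with information shared across genes. All members were named, with values per library at a mean of 5 CPM or more in the higher group and with counts otherwise. Members and lists were chosen with earlier results of these data known. Alternatives covered scaling, filters, rounding, thresholds, DESeq2 1.42.0, pooled controls, a replicate block and each library left out.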

Additional observations from a re-analysis of the deposited data

How the results depend on the processing

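The 23 collagen genes called higher in siEF against siNEG were called again by RLE and upper quartile scaling, by the 6 libraries alone, without rounding, with pooled controls and by DESeq2, which added COL9A1. Counts ran from 16 to 26 over all alternatives, the lowest with at least 10 counts required in every library, where 7 of the 23 were no longer tested. Leaving out 1 library gave 23 to 24 against siNEG and 24 to 25 against Media. The test against a Log2FC of 1 kept 18 and lost COL11A2, COL12A1, COL27A1, COL4A6 and COL6A3. COL4A3 was the 1 member called lower against Media at an adjusted p under 0.05 or with no filter. Without the fold threshold 4 members were called in siNEG against Media, and 24 synthesis and receptor genes were higher and 6 lower in siEF against siNEG. No share over all genes is given for siEF against siNEG without the fold threshold, so these 2 counts cannot be set against a general rate. With both controls pooled 2 synthesis and receptor genes were called lower. The median Log2FC, 2.09, was 2.17 with upper quartile scaling, 2.14 without the filter (42 members), 2.17 with at least 10 counts in every library (19 members), 2.25 with DESeq2 and 2.39 with pooled controls, and 2.05 to 2.63 with 1 library left out, the highest without siNEG replicate 1. The cause of these shifts was not tested. FLI1 did not pass the test against a Log2FC of 1 (-0.35, adjusted p = 1).

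Replicate numbers did not pair the libraries (correlations of deviations from -0.0875 to 0.0482). With the replicate block the median was 2.13, and the same 23 members were called.

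Members under 20 counts in every library, among them COL1A2 and COL9A1, were too low at this depth for a fold estimate beyond the values against the floor.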

Other observations

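Against Media the synthesis and receptor genes gave values of their own, with the siEF libraries shared between both comparisons. Of the 29 synthesis genes tested, 9 were called higher and 1 lower, and of the 8 receptors 2 were called higher and 1 lower, where 17.4% and 12.5% of all genes tested were. The receptor counts were near those shares. LOXL4 and ITGA11, again among the genes called higher, had passed the filter on low counts only through their siEF libraries. The receptor called lower was ITGA1, the collagen IV-binding integrin chain, at a mean of 5.37 CPM in siEF, 9.96 in siNEG and 16.8 in Media (siEF against Media, Log2FC = -1.64, edgeR adjusted p = 2.1e-09). Against siNEG it was -0.89 (edgeR adjusted p = 6.2e-06) and not called. P4HA2 was just under the fold threshold against Media (Log2FC = 0.99) and just over it against siNEG (1.05). COLGALT2, which adds galactose to hydroxylysine, was at 46.6 CPM in siEF and 73.0 in siNEG, and its relative COLGALT1 at 187 and 113, and neither was called (Log2FC = -0.65 and 0.73). ADAMTS2, the main procollagen N-proteinase, was at 0 in all 9 libraries.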
